A study of Mus musculus with 6 samples.

Results

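The nuclear genes of the mitochondrial respiratory chain were taken from a table of 34542 genes measured by RNA sequencing of mouse fetal liver. Members were chosen by symbol alone: symbols starting with Nduf, Uqcr or Atp5, symbols of the Cox4 to Cox8 families, Sdha to Sdhd, and Cyc1, leaving out names with the pseudogene suffix. The rule took 92 genes, of which 83 encode subunits of complexes I to V. The other members were 4 complex I assembly factors, a pair of factors named after ATP synthase (Atp5s and Atp5sl), the paralogue Ndufa4l2, the processed pseudogene Atp5l2, and Cox4nb, a subunit of an endoplasmic reticulum membrane complex that carries the name of its neighbour Cox4i1. Polyadenylated RNA came from equal numbers of fetal liver cells of C57BL/6J embryos, 3 wild-type (WT replicates 1 to 3) and 3 lacking miR-144 and miR-451 (KO replicates 4 to 6). The sources used here give neither the embryonic age nor whether a library came from 1 embryo or a pool, so the p-values cover only the spread among these libraries, which may be technical. The comparison asks how the messenger RNAs of the chain differ when both microRNAs are absent.

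The respiratory chain passes electrons from NADH (complex I) and succinate (complex II) through complex III and cytochrome c to complex IV, which reduces oxygen. Complexes I, III and IV pump protons, and complex V, the ATP synthase, uses the resulting gradient to make ATP. A few subunits are encoded by mitochondrial DNA and the rest by the nuclear genes described here. Most red cells of the embryo form in its liver, where the same mitochondria also supply succinyl-CoA for haem, and red cells lose their mitochondria late in maturation. MicroRNAs pair through their seed, bases 2 to 8, with sites in the 3' untranslated region (UTR) of messenger RNAs and lower those messages.

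The mature microRNAs of the deleted locus lie together on chromosome 11, and their sequences define the sites searched for in the members. They are given 5' to 3' from RefSeq (GRCm38.p6), with the seed in capitals. The 3 seeds differ from each other, so each microRNA has its own 7-base site: AACGGTT for miR-451a, ATACTGT for miR-144-3p and TGATATC for miR-144-5p.
miR-451a: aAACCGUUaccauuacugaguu
miR-144-3p: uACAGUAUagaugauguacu
miR-144-5p: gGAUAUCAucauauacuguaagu

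Sites were rare in the members. No annotated 3' UTR of the 91 members searched held the miR-451a site, and 3 members held the miR-144-3p site in any annotated 3' UTR: Atp5g2, Atp5a1 and Cox7b2. The same search over 15281 genes with a count found the miR-451a site in 2.42% and the miR-144-3p site in 14.0% of genes. Searching any annotated 3' UTR was chosen after the data were seen. In the longest annotated 3' UTR only Atp5a1 and Cox7b2 held the miR-144-3p site (2 of 91 members, against 12.7% of those genes), and Atp5g2 did not. The members' 3' UTRs were short, with a median of 289 bases for the longest annotated form against 1223 bases over those genes. The miR-144-5p site was found in Uqcrfs1 and Ndufb8.

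The site of Atp5g2 is shown because this gene had the largest increase of all members. It is an 8mer, the 7-base match followed by A, at bases 134 to 140 of the 150-base 3' UTR of transcript ENSMUST00000185641, in the last exon of the gene. It lies at chr15:102662874-102662880 (GRCm38, minus strand), and the stretch printed is chr15:102662864-102662891 with the 7-base match in capitals. A longer annotated 3' UTR of the gene, 311 bases from a transcript with an incomplete 5' end, does not hold it.
Atp5g2 site: aagacaaataaATACTGTattaataaga

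Each library held between 24659978 and 44700229 gene counts, and the deleted microRNA genes were counted at 29 to 51 (Mir144) and 323 to 446 (Mir451) in WT against 0 to 1 and 2 to 4 in KO. All levels below are CPM, counts relative to the scaled library size, and changes are log2 differences of KO against WT. Markers of the 2 main cell types were present in every library: 20 of 20 hepatocyte markers and 14 of the 16 listed erythroid markers were measured, and no marker of either list was at 0. Summed hepatocyte marker levels ran from 9480 to 60834 CPM in WT and from 13928 to 49647 CPM in KO, with WT replicate 2 and KO replicate 6 far above the others of their groups. Summed erythroid marker levels were 24790 to 33871 CPM in WT and 18841 to 21973 CPM in KO, with no overlap. All 14 erythroid markers lay below 0, with a median change of -0.51: edgeR called 2 lower, DESeq2 9 and the edgeR fit with a hepatocyte covariate 10. Over all genes those fits called 219 of 15105, 502 of 22464 and 1305 of 15105 lower. In these bulk samples, fewer cells of a type and less RNA per cell cannot be told apart. The part of the differences in erythroid, hepatocyte and other markers in the changes below was not tested, beyond a fit with the hepatocyte level as a covariate. No marker of macrophages (12 measured), megakaryocytes (8), neutrophils and mast cells (12) or endothelium (7) passed the threshold in edgeR, DESeq2 or limma-voom, with 1 neutrophil or mast cell marker lower without adjustment. All 12 neutrophil and mast cell markers lay below 0 (median -0.56), with summed levels of 2445 to 4243 CPM in WT and 1560 to 3246 CPM in KO, and all 7 endothelial markers lay above 0 (median 0.14). All 11 muscle markers stayed under 1 CPM on average.

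Of the 92 members, 88 passed the filter on low counts and were tested. Transcripts of 4 members were higher in KO at an adjusted p under 0.05 (edgeR quasi-likelihood test, adjusted over 15105 genes): Atp5g2, Cox5a, Ndufb5 and Ndufa6. They belong to complexes V, IV and I. The background share called higher over all genes was 1.83%. No member was lower past the threshold in edgeR, where the background was 1.45%, nor in DESeq2 or limma-voom, while Ndufa5 and Ndufa4 were lower without adjustment (p under 0.05). By that criterion edgeR had 15 members higher and 2 lower, against 7.77% of all genes higher and 8.78% lower. Over all genes edgeR called 276 higher and 219 lower, and 551 higher and 250 lower when libraries were scaled by their totals alone. The median change of the 88 members was 0.03 against -0.03 over all genes. Of the 88, 53 (60.2%) lay above 0, against 44.8% of all 15105 genes tested. In 23 members every KO library was above every WT library, and in 3 every KO library was below (backgrounds 11.8% and 10.9%).

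Complex V held the largest change. Atp5g2 (ENSMUSG00000062683, chr15:102662864-102672352, GRCm38) encodes subunit c, the small membrane protein whose copies form the rotating ring of the ATP synthase. Its level was 45.8, 49.1 and 43.0 CPM in the WT libraries (replicates 1, 2 and 3) and 81.7, 83.3 and 78.6 CPM in the KO libraries (replicates 4, 5 and 6). All KO libraries were high and the groups did not come near each other. The means were 46.0 ± 3.07 and 81.2 ± 2.42 CPM (SD, n = 3 each), a 1.77-fold difference (log2 change 0.82, SE 0.08, edgeR adjusted p 0.0108).

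Subunit c is encoded by 3 genes that specify the same mature protein behind different mitochondrial import sequences, and the other two did not pass the threshold. The difference in change between the 3 genes was not tested. Atp5g1 was at 93.4, 95.8 and 93.5 CPM in WT and at 100.4, 93.8 and 94.3 CPM in KO (log2 change 0.03, SE 0.06). Atp5g3, the most abundant of them, was at 246.9, 244.0 and 252.7 CPM in WT and at 252.6, 259.9 and 254.5 CPM in KO (log2 change 0.04, SE 0.07). For both the groups overlapped and the adjusted p was 0.942 and 0.892 in edgeR. Per kilobase of messenger RNA, Atp5g2 made up 11.1% ± 0.735 of the subunit c transcripts in WT and 17.6% ± 0.333 in KO (SD, n = 3 each, shortest annotated mRNAs). With the longest annotated mRNAs the shares were 14.6% ± 1.03 and 22.7% ± 0.419. The summed level of the 3 genes was 568 ± 2.53 CPM per kilobase in WT and 631 ± 7.30 in KO with the shortest mRNAs. Atp5g3 remained the main source, with 61.1% ± 1.07 of it in WT and 56.8% ± 0.869 in KO. Of the 50-base windows of the longest Atp5g2 transcript, 14.8% were shared with other genes, including 2 pseudogenes, so a part of its count is uncertain where reads could be split between them.

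**Figure D1:**
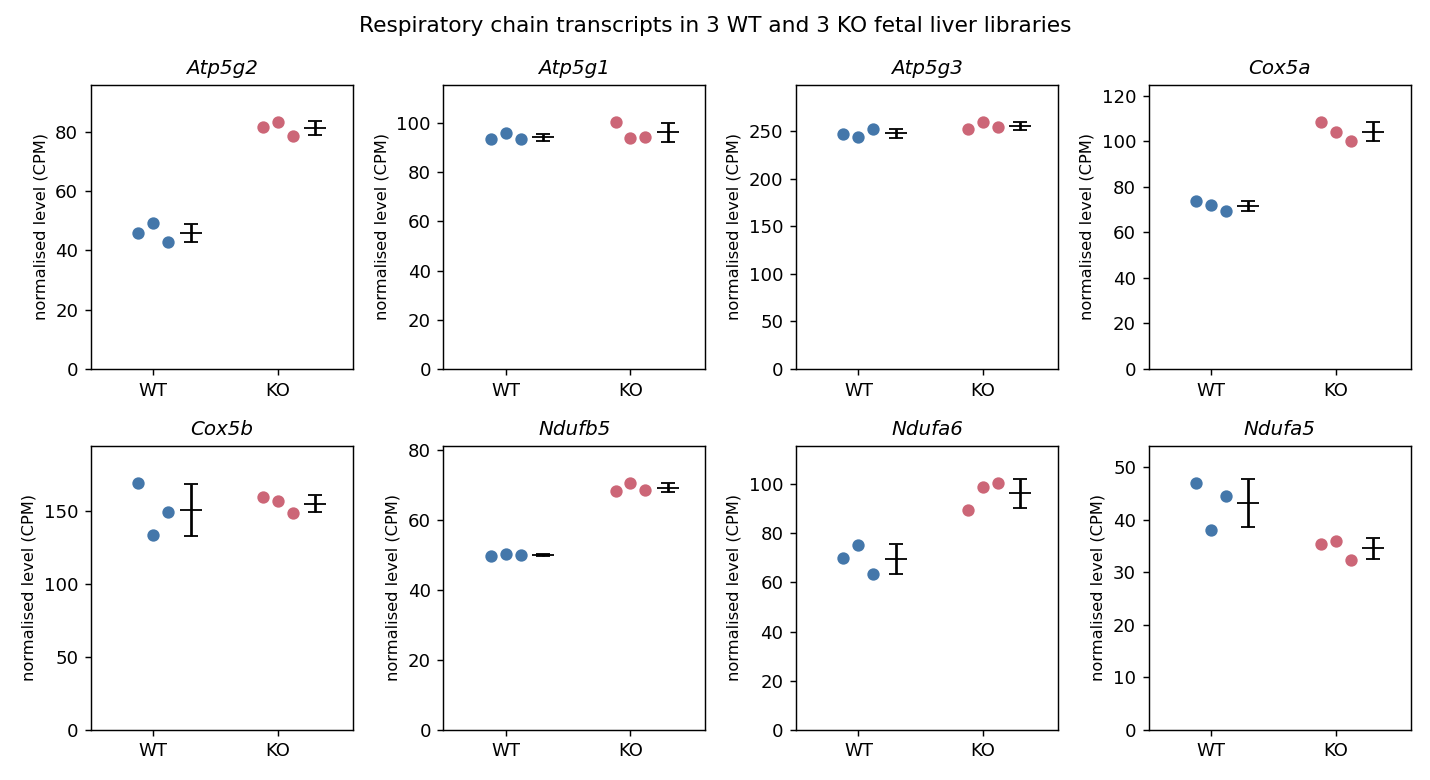
Levels (CPM, linear axes from 0) of 8 respiratory chain genes in each of 3 WT (blue) and 3 KO (red) libraries, with the mean and SD beside the points. The KO points of Atp5g2, Cox5a, Ndufb5 and Ndufa6 lie above all WT points, those of Ndufa5 lie below them, and the other subunit c genes and Cox5b do not separate.

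The catalytic head of the ATP synthase was the most abundant part of the whole chain. Atp5b, the catalytic beta subunit, stood first among all members per kilobase of messenger RNA, at 898 CPM per kilobase over the 6 libraries. Its level was 1799, 1573 and 1674 CPM in WT and 1781, 1780 and 1712 CPM in KO, and the groups overlapped (log2 change 0.06, SE 0.12, edgeR adjusted p 0.919). Atp5a1, the alpha subunit, was at 1088, 968 and 1073 CPM in WT and 1259, 1235 and 1159 CPM in KO. Here the groups did not overlap, yet the change of 0.22 (SE 0.11) did not pass (edgeR adjusted p 0.378). Atp5a1 is one of the members with a miR-144-3p site. The largest decrease in the complex was that of Atp5k, subunit e of the membrane part, at -0.13 (SE 0.14). Of the 15 complex V genes 9 lay above 0, with a median of 0.03.

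In complex IV, cytochrome c oxidase, the nuclear subunits surround a core encoded by mitochondrial DNA. Cox5a (ENSMUSG00000000088, chr9:57521274-57532426) encodes one of these structural subunits, on the matrix side. Its level was 73.8, 71.9 and 69.4 CPM in WT and 108.4, 103.8 and 100.1 CPM in KO. Every KO library was above every WT library (1.45-fold, log2 change 0.54, SE 0.07, edgeR adjusted p 0.0180). Cox5a overlaps the unnamed gene model Gm26631 on the opposite strand, which was not analysed here. Cox5b, a structural subunit picked here after its values were seen, was at 151 ± 18.2 CPM in WT and 155 ± 5.85 CPM in KO (log2 change 0.04, SE 0.10). The 2 subunits of highest CPM (not per kilobase) did not pass the threshold: Cox4i1 changed by -0.08 (SE 0.10) and Cox6b1 by -0.05 (SE 0.10). The median over the 15 tested complex IV genes was -0.05, with 6 above 0. Scaled by library totals alone that median was 0.04, with 11 above 0.

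Ndufa4, long counted with complex I and now assigned to complex IV, had the largest decrease among the complex IV genes of at least 5 CPM. It was at 158, 143 and 139 CPM in WT and at 126, 128 and 124 CPM in KO. All KO libraries were below all WT libraries, but the change of -0.22 (SE 0.08, unadjusted p 0.0243) did not pass adjustment in edgeR (adjusted p 0.212). Its paralogue Ndufa4l2 varied widely within both groups, at 19.6, 31.7 and 8.39 CPM in WT and 8.22, 18.8 and 23.0 CPM in KO.

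Several complex IV subunits exist as a common form and a form known from particular tissues. The muscle and heart forms Cox6a2 and Cox7a1 and the lung form Cox4i2 were close to 0 here, with shares under 1% of their families per kilobase in both groups. Cox7b2 and Cox8b had no count in any library, and Cox8c had 1 count, in KO replicate 6. The exception was Cox6b2, a form known from testis, at 41.8, 30.9 and 45.1 CPM in WT and 55.5, 48.4 and 52.5 CPM in KO. The KO libraries were all above the WT libraries, and the change of 0.41 (SE 0.15, unadjusted p 0.0322) did not pass adjustment in edgeR (adjusted p 0.243). Per kilobase, Cox6b2 made up 21.4% ± 2.37 of the Cox6b transcripts in WT and 27.3% ± 1.66 in KO with the shortest mRNAs (SD, n = 3 each), and 17.8% ± 2.07 and 23.0% ± 1.48 with the longest.

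Complex I supplied the other members that rose, both of them accessory subunits, which surround the catalytic core. Ndufb5 (ENSMUSG00000027673, chr3:32736990-32751566), a subunit of the membrane arm, was at 49.8, 50.3 and 49.997 CPM in WT and 68.3, 70.7 and 68.7 CPM in KO. The replicates of each group lay within a few percent of each other, and the groups were well apart (1.38-fold, log2 change 0.47, SE 0.06, edgeR adjusted p 0.0199). Ndufb5 overlaps Mrpl47 on the opposite strand, and whether reads were counted by strand is not stated. Mrpl47, a mitochondrial ribosome gene, was at 26.4 ± 3.78 CPM in WT and 24.6 ± 2.09 CPM in KO (log2 change -0.11, edgeR adjusted p 0.840).

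Ndufa6 (ENSMUSG00000022450, chr15:82350140-82354322) encodes an accessory subunit of the matrix arm that binds the mitochondrial acyl carrier protein. It was at 69.9, 75.4 and 63.3 CPM in WT and 89.5, 98.9 and 100.7 CPM in KO. The groups did not overlap, and the change was 1.39-fold (log2 change 0.47, SE 0.09, edgeR adjusted p 0.0496). This call sat at the threshold: the adjusted p was 0.0528 with upper quartile scaling in edgeR and 0.0590 in limma-voom.

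Ndufa5, an accessory subunit of the matrix arm, moved the other way. Its level was 47.0, 38.0 and 44.5 CPM in WT and 35.4, 35.998 and 32.2 CPM in KO, so that all KO libraries were below all WT libraries. The change of -0.32 (SE 0.11, unadjusted p 0.0211) was the largest decrease among members of at least 5 CPM and did not pass adjustment in edgeR (adjusted p 0.196). Leaving out 1 library at a time gave changes of -0.41 to -0.25, with edgeR adjusted p of 0.0359 to 0.553. Ndufa5 passed in 1 of these 6 fits, without WT replicate 2, the WT library of lowest Ndufa5 and highest hepatocyte level. That fit called 1012 of 15308 genes lower. With the hepatocyte covariate the change was -0.30 with an edgeR adjusted p of 0.0196, where 8.64% of all genes were called lower. The 2 accessory subunits of highest CPM (not per kilobase), Ndufa10 and Ndufa9, changed by -0.07 (SE 0.10) and -0.02 (SE 0.08).

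The 7 nuclear core subunits of complex I carry the flavin and the iron-sulfur clusters of the matrix arm, and none passed the threshold. Ndufs3 was at 90.3, 85.3 and 83.5 CPM in WT and 103.9, 105.8 and 104.9 CPM in KO (log2 change 0.28, SE 0.06, edgeR adjusted p 0.0781). All its KO libraries were above all WT libraries, and DESeq2 called it. Of the 50-base windows of Ndufs3, 35.8% were shared with other genes. Ndufs1, the largest core subunit, changed by 0.14 (SE 0.09), and Ndufv1, which binds NADH and the flavin, by -0.01 (SE 0.08). In 6 of the 7 core genes every KO library was above every WT library (background 11.8%), and the median was 0.14. The 29 accessory genes had a median of 0.08, with 21 above 0. The 4 assembly factors Ndufaf1 to Ndufaf4, which help build complex I and do not stay in it, had a median of -0.08 and none above 0. With scaling by library totals alone their median was 0.01, with 3 above 0. Ndufaf2, the lowest of them, was at 15.5 ± 1.56 CPM in WT and 13.1 ± 1.32 CPM in KO (-0.25, SE 0.14, edgeR adjusted p 0.448).

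Complex II oxidises succinate and has no subunit encoded by mitochondrial DNA. Sdhc, a membrane anchor, was at 110.2, 106.2 and 98.0 CPM in WT and 122.2, 131.2 and 127.9 CPM in KO (log2 change 0.28, SE 0.07, edgeR adjusted p 0.118). Sdha, the flavoprotein that oxidises succinate, was at 284, 294 and 262 CPM in WT and 315, 323 and 326 CPM in KO (0.20, SE 0.08, edgeR adjusted p 0.292). In both genes all KO libraries were above all WT libraries, without passing the threshold. Sdhb, the iron-sulfur subunit, changed by 0.04 (SE 0.07) and Sdhd, the other anchor, by 0.08 (SE 0.07). All 4 genes lay above 0 under every scaling tried, with a median of 0.14 in edgeR.

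Complex III, which passes electrons to cytochrome c, had no gene past the threshold. Uqcrc2, a core protein, had its largest increase, from 234 ± 14.5 CPM to 271 ± 6.76 CPM (SD, n = 3 each; log2 change 0.21, SE 0.08, edgeR adjusted p 0.256), and its partner Uqcrc1 changed by 0.15 (SE 0.08). Uqcrb, a small subunit, had the largest decrease, at -0.14 (SE 0.09). Of the 9 genes 4 lay above 0, and the median was -0.00109. Scaled by library totals alone 8 lay above 0, with a median of 0.09.

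**Figure D2:**
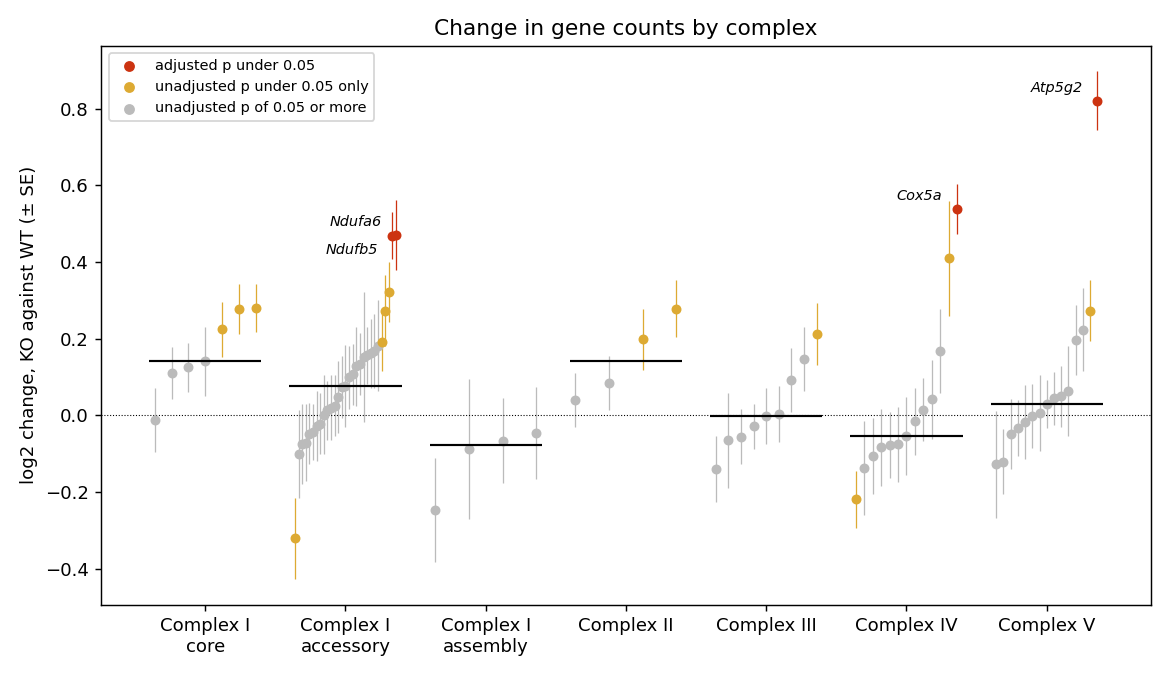
Log2 change in gene counts, KO against WT, with its SE for each member of at least 5 CPM, sorted within complexes; black bars are medians of the genes drawn. Red marks the 4 genes past an adjusted p of 0.05 and yellow those with an unadjusted p under 0.05 only. Complex I core, complex I accessory and complex II genes sit mostly above 0, and the assembly factors below it.

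For the members as a whole the libraries of the groups overlapped. WT replicate 2 was the lowest library for 46 of the 88 tested members and WT replicate 1 the highest for 33. The median deviation of all members from their own mean was 0.05, -0.12 and -0.01 in WT, in replicate order, and 0.04, 0.05 and -0.01 in KO (log2). WT replicate 2 was also the library of highest hepatocyte marker level. The core of complex I and complex II were the groups whose medians did not overlap: complex I core lay between -0.13 and -0.03 in WT and between 0.05 and 0.11 in KO, and complex II between -0.12 and -0.02 in WT and between 0.05 and 0.10 in KO. As a share of all gene counts the 92 members together took 1.07% to 1.11% in WT and 1.18% to 1.26% in KO. On the scaled level their sums overlapped, at 10605 to 12020 CPM in WT and 11576 to 12142 CPM in KO.

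**Figure D3:**
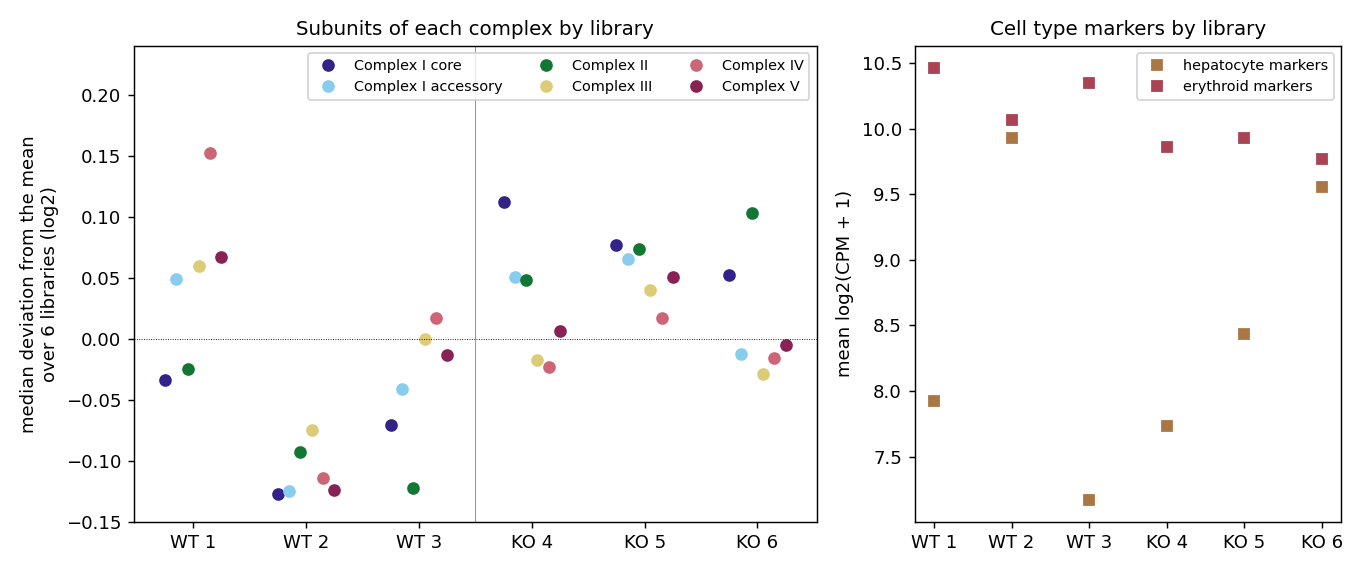
Left, the median deviation (log2) of the tested subunits of each complex from their mean over the 6 libraries; right, the mean log2(CPM + 1) of hepatocyte and erythroid markers. WT replicate 2 has the lowest medians for most complexes and the highest hepatocyte markers, while complex I core and complex II are below 0 in all WT libraries and above 0 in all KO libraries.

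When the hepatocyte level entered the fit as a covariate, edgeR called 13 members higher and 1 lower, where the background rose to 8.55% higher and 8.64% lower. The 4 genes named above were among them with nearly the same changes: 0.81 for Atp5g2, 0.54 for Cox5a, 0.47 for Ndufb5 and 0.45 for Ndufa6. The others, with changes of 0.20 to 0.46, included Ndufs3, Ndufs7, Ndufc1, Ndufc2, Ndufv3, Sdhc, Cox6b2 and Atp5e, and the 1 lower was Ndufa5. Leaving out 1 library at a time kept the direction and nearly the size of the 4 changes (0.78 to 0.87 for Atp5g2, 0.50 to 0.56 for Cox5a, 0.44 to 0.47 for Ndufb5 and 0.41 to 0.53 for Ndufa6). Their adjusted p passed in few of these fits: Atp5g2 in 2 of 6, and each of the others in 1 of 6. Without WT replicate 2 all 4 passed, among 6 members higher and 1 lower, and without KO replicate 6 only Atp5g2 passed. No member passed without WT replicate 1, WT replicate 3, KO replicate 4 or KO replicate 5. Over all genes, the 4 fits with no member called had 5 to 14 genes higher and 7 to 12 lower. The fit without WT replicate 2 had 483 higher and 1012 lower.

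Counts in introns, used here as a measure of unspliced RNA, were deposited for 89 members, and 85 were tested. They can also hold RNA of overlapping genes, since the strand setting is not stated, and that part was not tested. Atp5o, which overlaps other gene models, had 12384 to 17210 intron counts per library against 5141 to 9698 gene counts. Of the 85 tested members, intron changes were as follows. None passed an adjusted p of 0.05 in edgeR in either direction (backgrounds 0.237% higher and 0.483% lower), while 4 were higher and 2 lower without adjustment (p under 0.05; backgrounds 5.39% and 5.45%). DESeq2, which over all genes called 88 higher and 182 lower of 15540, called 1 member higher, Cox6b2. Its intron level was 39.1, 37.5 and 27.5 CPM of intron counts in WT and 60.4, 63.4 and 65.2 in KO, with no overlap (log2 change 0.86, SE 0.17, edgeR adjusted p 0.0817). The exonic change of Cox6b2 set against its intronic change was -0.45 (SE 0.26, unadjusted p 0.131), which did not pass. The median intron change of the members was 0.15 against 0.02 over all genes.

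The 4 genes that rose in gene counts had intron changes between -0.05 and 0.29, none past the threshold. Atp5g2 introns were at 107 ± 12.8 CPM of intron counts in WT and 122 ± 8.31 in KO (log2 change 0.19, SE 0.14). The intron change was -0.05 (SE 0.27) for Cox5a, 0.08 (SE 0.17) for Ndufb5 and 0.29 (SE 0.18) for Ndufa6. The exonic change set against the intronic change in 1 fit was 0.62 (SE 0.18, unadjusted p 0.00932) for Atp5g2, the only member above 0 at an unadjusted p under 0.05, against a background of 1.67%. None of 84 members passed adjustment in edgeR, nor did any of 11100 genes, so the background was 0% in both directions.

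Exonic change below intronic change was seen at an unadjusted p under 0.05 in 5 members, against a background of 1.5%. Uqcr11, a small complex III subunit, had the lowest value at -0.78 (SE 0.31), followed by Ndufa5 at -0.60 (SE 0.22). Atp5g3, Ndufa4 and Cox4i1 were at -0.38 (SE 0.16), -0.36 (SE 0.15) and -0.34 (SE 0.14). The Uqcr11 introns were counted at 6.43 ± 1.73 CPM in WT and 10.7 ± 3.38 CPM in KO, a low level beside its gene counts of 84.3 ± 1.85 and 81.1 ± 5.17 CPM. All 5 had an edgeR adjusted p of 1.

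**Figure D4:**
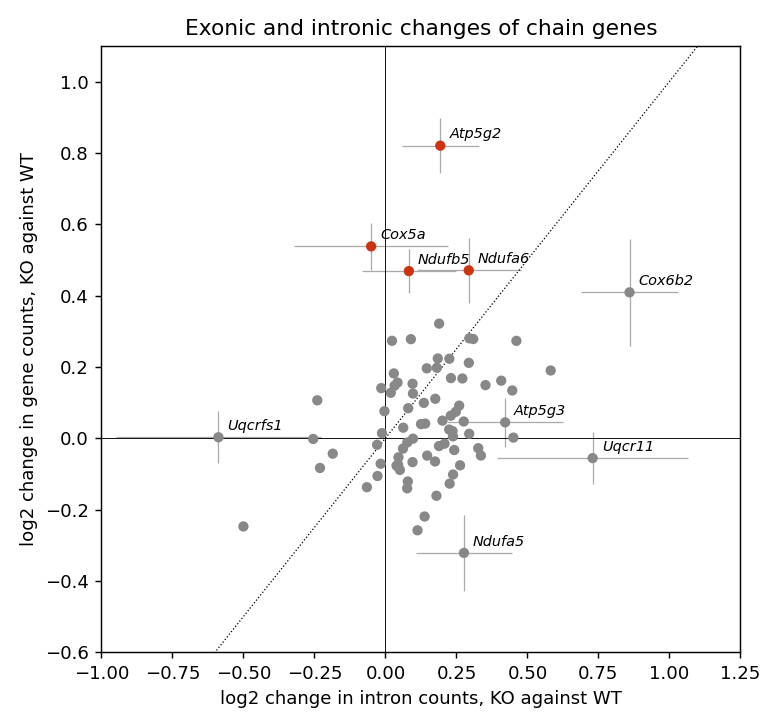
Log2 change in gene counts against log2 change in intron counts, KO against WT, for members of at least 5 CPM tested in both; red marks the 4 genes past the threshold in gene counts, error bars on named genes are SE, and the dotted line is equality. Atp5g2, Cox5a and Ndufb5 lie above the line, with intron changes of 0.19, -0.05 and 0.08, and Cox6b2 lies below it.

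Promoters of respiratory chain genes are known for sites of NRF1, of ETS family factors such as GABP, and of YY1. Of the 92 members 74 had a RefSeq promoter (GRCm38.p6, 250 bases before to 50 after the start), searched on both strands. The background was all 27025 genes with a promoter sequence, whether or not they had a count here. The NRF1 motif (GCGCA, any base, then GCGC) was present in 18 members (24.3%, against 5.19% of those genes). The ETS motif CCGGAAG was present in 17 (23.0% against 9.93%) and the YY1 motif AAGATGGC in 11 (14.9% against 3.19%). Of the 4 genes that rose, Atp5g2 and Ndufa6 held the NRF1 motif and neither Cox5a nor Ndufb5 held any of the 3. The NRF1 motif was also present in Ndufa5, which had the largest decrease among members of at least 5 CPM (-0.32). The matches of Atp5g2 and Ndufa6 are shown because these genes were called higher, with the motif in capitals. The Atp5g2 match starts 42 bases before the start site (stretch chr15:102671070-102671099, minus strand), and the Ndufa6 match starts 24 bases after it and reads on the opposite strand (stretch chr15:82354249-82354278, minus strand).
Atp5g2 promoter: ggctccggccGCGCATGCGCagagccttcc
Ndufa6 promoter: ccgtggcaccGCGCGTGCGCacgctgaagg
The median change in gene counts was 0.05 in the 18 members with the NRF1 motif and 0.02 in the 54 tested without it. With and without the ETS motif it was -0.02 and 0.04, and with and without the YY1 motif -0.02 and 0.04. None of the 4 genes that rose held the ETS or YY1 motif.

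The members depend on other genes for assembly, electron carriers, substrate and regulation, and 5 such lists were counted in the same fit. Of 27 measured assembly and insertion factors, 1 was higher in KO and none lower in edgeR (backgrounds 1.83% and 1.45%). Without adjustment (p under 0.05) 4 were higher and 1 lower (backgrounds 7.77% and 8.78%), and DESeq2 called 4 higher: Cox10, Cox15, Atpaf1 and Tmem186. Over all genes DESeq2 called 543 of 22464 higher. The gene called in edgeR was Cox10, which makes the haem O precursor of the haem A carried by complex IV. Its level was 13.4, 13.9 and 14.2 CPM in WT and 28.8, 27.3 and 22.3 CPM in KO. All KO libraries were far above the WT libraries (log2 change 0.92, SE 0.13, edgeR adjusted p 0.0215), and its intron change was 0.10. Leaving out 1 library at a time gave changes of 0.83 to 1.01, and the call passed only without WT replicate 2 or KO replicate 6.

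Of 19 measured regulators of respiratory gene expression and mitochondrial DNA, 1 was higher and none lower in edgeR (backgrounds 1.83% and 1.45%), and 4 were higher and 2 lower without adjustment (p under 0.05; backgrounds 7.77% and 8.78%). With the hepatocyte covariate 4 were called higher and 2 lower, where the backgrounds were 8.55% and 8.64%. Those genes were Gabpa, Gabpb1, Nrf1, Polrmt, Tfam and Tfb2m, and the directions of those other than Tfb2m are not given here. The gene called higher in both fits was Tfb2m, a factor that starts transcription of mitochondrial DNA together with Tfam and the mitochondrial RNA polymerase. It was at 17.0, 14.0 and 18.4 CPM in WT and 30.2, 28.7 and 26.2 CPM in KO, with no overlap (log2 change 0.78, SE 0.13, edgeR adjusted p 0.0328), and its intron change was 0.12. Leaving out 1 library gave changes of 0.68 to 0.87, and the call passed only without WT replicate 2. The transcripts of mitochondrial DNA that Tfb2m acts on were not analysed here.

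Both genes carry a site of the deleted microRNAs in their longest annotated 3' UTR, in a search of the lists run after their values were seen. Of the 91 listed genes searched, 3 held the miR-451a site and 16 the miR-144-3p site in that UTR, against 2.11% and 12.7% of all 15281 genes. Cox10 held 2 miR-451a sites in 1495 bases, at chr11:63963449-63963455 and chr11:63962938-63962944, and Tfb2m held a miR-144-3p site in 1122 bases, at chr1:179528346-179528352 (GRCm38, all on the minus strand). They are printed with the 7-base match in capitals, in stretches at chr11:63963437-63963466, chr11:63962926-63962955 and chr1:179528334-179528363.
Cox10 site A: tggggattccaAACGGTTgcctgcagatcc
Cox10 site B: gccacacagaaAACGGTTcttgaatttgga
Tfb2m site: cctcagtttctATACTGTtacgcttagaaa
None of these sites is followed by A, so each is a 7-base match, in contrast to the 8mer of Atp5g2. Among the listed genes, Sco1, Idh2, Idh3a, Suclg2 and Gabpa held 8mers of miR-144-3p in the longest annotated 3' UTR. None of them was called in the main edgeR fit. With the hepatocyte covariate Idh3a, Suclg2 and Gabpa were called, where the backgrounds were 8.55% higher and 8.64% lower.

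The other lists had no gene past the threshold in edgeR or limma-voom, and DESeq2 called 1 higher in the tricarboxylic acid cycle (543 of 22464 over all genes). Of 17 genes of that cycle, 5 had an unadjusted p under 0.05 with a higher level and 0 with a lower level, against 7.77% of all genes higher and 8.78% lower, and the median was 0.09. The lowest p was that of Sucla2, a subunit of succinyl-CoA synthetase, at 58.4 ± 2.08 CPM in WT and 71.6 ± 1.79 CPM in KO (SD, n = 3 each; log2 change 0.29, SE 0.07, edgeR adjusted p 0.0779), which is also the gene DESeq2 called. Of 17 tested genes of mobile carriers and quinone synthesis 1 was higher and 0 lower at that unadjusted p, with the same backgrounds of 7.77% and 8.78%: Coq3, a methyltransferase of ubiquinone synthesis, changed by 0.35 (SE 0.12, edgeR adjusted p 0.210). Of 10 genes of ATP export and synthase regulation 2 were higher and 1 lower at that p, against the same backgrounds, and Slc25a3, the mitochondrial phosphate carrier, changed by 0.27 (SE 0.09, edgeR adjusted p 0.201).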

How the data were processed

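The authors deposited raw counts per gene symbol for 6 libraries, and counts in exons and introns for 15543 genes, whose exon counts equal the gene counts for all 15543. Per the submitters' processing notes, STAR and HTSeq were used and the builds NCBIM37 and mm10 are named. The sources used here state no versions, gene models or strand setting. The tables hold no globin or mitochondrially encoded gene (0 symbols), so library sizes leave them out. Intron counts were 16.9% to 23.4% of exon plus intron counts. Replicates of a group differed beyond sampling noise (chi-square per degree of freedom 16.7 to 157), and each was kept.

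TMM-scaled counts of KO and WT were compared in edgeR 4.0.16 (R 4.3.3; quasi-likelihood F test, filterByExpr with a minimum count of 10 and total of 15, Benjamini-Hochberg over all genes tested, two-sided, threshold 0.05). Intron counts were tested alike, and the exonic against the intronic change by an interaction term with a term per sample. Standard errors come from the F statistic. DESeq2 1.42.0, limma-voom (limma 3.58.1), other scalings, no filter, a hepatocyte covariate and leaving out libraries were alternatives. The scripts were checked on simulated counts. Symbols matched GENCODE (GRCm38): 89 unchanged, 3 by an older symbol. The longest annotated 3' UTR was searched for seed sites, with the shortest and any annotated UTR as alternatives, the latter chosen after seeing the data.

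Named members were those past the threshold, and per complex the 2 most abundant and the largest increase and decrease at 5 CPM or more. Tissue-restricted isoform families, the 4 lowest p of the exonic against intronic test, members with a site, and up to 3 called genes (or the lowest p) per pathway list completed the rule. The members and lists were chosen with earlier results of these data known. Some results are not reported here.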

Additional observations from a re-analysis of the deposited data

How the results depend on the processing

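The 4 members called higher and 0 called lower became 9 higher with library totals alone (551 of 15105 over all genes) and 7 higher with DESeq2 (543 of 22464). With the hepatocyte covariate they became 13 higher and 1 lower (1292 and 1305 of 15105 over all genes). With WT replicate 2 and KO replicate 6 both left out, 1 was called lower, against 580 higher and 838 lower over all genes. Leaving out each library in turn gave 0 to 6 members higher and 0 to 1 lower. The median change of 0.03 moved to 0.12 with library totals, which moved the median of all genes from -0.03 to 0.06. Over all genes the 276 higher and 219 lower became 424 and 372 with upper quartile scaling, 543 and 502 with DESeq2 and 1292 and 1305 with the hepatocyte covariate. The remaining settings called 3 to 6 members higher in gene counts. In intron counts DESeq2 called 1 member higher and edgeR 0, and the exonic against intronic test called 0 members in every setting. Of 39 named members tested, 15 changed sign under some setting, each from a change near 0 or with a wide spread. With library totals the changes turned to 0.080 (Ndufv1), 0.022 (Ndufa10), 0.070 (Ndufa9), 0.0029 (Ndufaf4), 0.026 (Ndufaf1), 0.047 (Ndufaf3), 0.018 (Cox4i1), 0.041 (Cox6b1), 0.011 (Cox6a1), 0.015 (Cox7a2l), 0.077 (Cox7b) and 0.035 (Uqcr11). Without a filter they turned to 0.027 (Ndufv1), 0.017 (Ndufa9) and 0.023 (Cox7b). Ndufv1 turned to 0.0032 with DESeq2 and 0.0080 with the hepatocyte covariate, and Uqcr11 to 0.0052 without both libraries of highest hepatocyte level. Leaving out 1 library ranged from -0.074 to 0.033 (Ndufv1), -0.075 to 0.036 (Ndufa9), -0.27 to 0.066 (Ndufaf4), -0.16 to 0.0058 (Ndufaf1), -0.092 to 0.037 (Ndufaf3), -0.13 to 0.040 (Cox6b1), -0.13 to 0.014 (Cox6a1), -0.72 to 0.94 (Cox7a1), -0.073 to 0.057 (Cox7b), -0.62 to 0.25 (Ndufa4l2) and -0.015 to 0.043 (Atp5g1). Cox5b, named outside the rule, ranged from -0.040 without WT replicate 2 to 0.14 without WT replicate 1. The cause was not tested. No paired analysis was run because the labels, WT 1 to 3 and KO 4 to 6, name no pairing, litter or batch. Members with the miR-144-3p site numbered 2 in the longest and 3 in the shortest or any annotated 3' UTR. The smallest member change called in the main edgeR fit (TMM scaling, all 6 libraries, no covariate) was 0.47. With the hepatocyte covariate the smallest was 0.20, that of Ndufc2.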
